A study of Mus musculus with 11 samples.

Results

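Clustered LacZ peaks are stretches of chromatin that a control pull-down recovered at several places close to each other. They were taken from the peak list of a chromatin isolation by RNA purification experiment (ChIRP-seq) in HPC5 cells, a mouse hematopoietic progenitor line from bone marrow whose strain the labels give as C57BL/6-cast (B6-cast). A peak was a member when another peak of the same list lay on its chromosome at an edge-to-edge gap of at most 10000 bp. The rule gave 349 members of 5504 LacZ peaks (6.34%, 95% Wilson interval 5.73 to 7.02%), and the other 5155 peaks are called isolated. Peak positions alone chose the members, so their closeness is a description and not a finding.

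The study holds 11 libraries, all from HPC5 cells fixed with 1% glutaraldehyde for 10 minutes, with chromatin sheared to 200 to 500 bp. The LacZ group has 2 technical replicates of 1 biological replicate, labelled biological replicate 1. They were pulled down with 6 biotinylated probes to LacZ, a bacterial gene that mouse cells lack. The comparison group has 6 libraries pulled down for LncHSC-2, a long non-coding RNA (2 each with the complete set of 12 probes, its odd 6 and its even 6), and 3 libraries are input chromatin. Both LacZ libraries share 1 deposited list, so no value per library exists here, no spread between libraries can be given, and no p-value was computed. Peak lists hold no expression values, so the label of the cells could not be checked against markers.

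In ChIRP, probes hybridize to an RNA in cross-linked, sheared chromatin, and the DNA that comes along on streptavidin beads is sequenced. Probes without a target in the cell show what the beads and the assay recover on their own. Input chromatin is sequenced without a pull-down, and the peak caller uses such a control to set the number of fragments to be had at each place by background alone. As general background, stretches whose sequence exists in more copies in the cell than in the assembly gather reads from all copies. In mouse such stretches include the satellite arrays around centromeres, and mouse chromosomes carry the centromere at the end from which positions are counted. Copy number was not tested here, and neither genes nor repeats of the mm9 assembly, in which all positions below are given, were annotated.

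4 quantities describe each peak. The fragment number is the whole number of sequenced fragments stacked at the summit, and the local background is the number the caller set against it; both were recovered from the deposited fold and p-value. The genome-wide background of the LacZ list was 0.0868 fragments, and the relative background of a peak is its local background divided by that number. Per the labels, the local background track of this LacZ run belongs to the 2 input libraries of biological replicate 2, so a local background above the genome-wide level is read here as that of input chromatin and not of the LacZ pull-down. The LacZ libraries are labelled biological replicate 1, so by the labels pull-down and input come from different biological replicates. The fold is the caller's ratio of summit to local background with 1 added to both. The added 1 outweighs a background of 0.0868 fragments, so folds at low and at high background are not on a like scale. Intervals cover counting error only, and neighbouring peaks share their surroundings and are not replicates.

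The 349 peaks formed 149 clusters, counted as chains in which each neighbouring pair met the rule. Pairs made up 134 of them and triples 8. The other 7 clusters held 4, 5, 5, 6, 7, 7 and 23 peaks, 57 peaks in all (16.3% of the members). The median cluster spanned 5446 bp, the shortest 728 bp and the longest 64404 bp.

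Gaps within clusters ran from 175 bp upward with quartiles of 1203.5, 3633.5 and 6575 bp, where the median was 305494 bp between all neighbouring LacZ peaks of a chromosome. The shortest gaps were the most frequent. The bin of 0 to 2 kb held 73 gaps, while each 2 kb bin from 2 to 10 kb held 27 to 37 and each from 10 to 20 kb held 21 to 29. The limit of 10000 bp therefore fell in a level stretch of the distribution. Of the 73 gaps, 38 lay outside the high-background clusters and the X chromosome tip, both described below. In these remaining clusters each 2 kb bin from 2 to 10 kb held 23 to 32 gaps, so short gaps were less marked there. The pair just inside it, 9961 bp apart on chromosome 11 at 93408843 to 93409033 and 93418995 to 93419261, had 3 and 4 fragments. The pair just outside it, 10074 bp apart on chromosome 13 at 42032807 to 42033186 and 42043261 to 42043593, had 3 and 5.

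**Figure D1:**
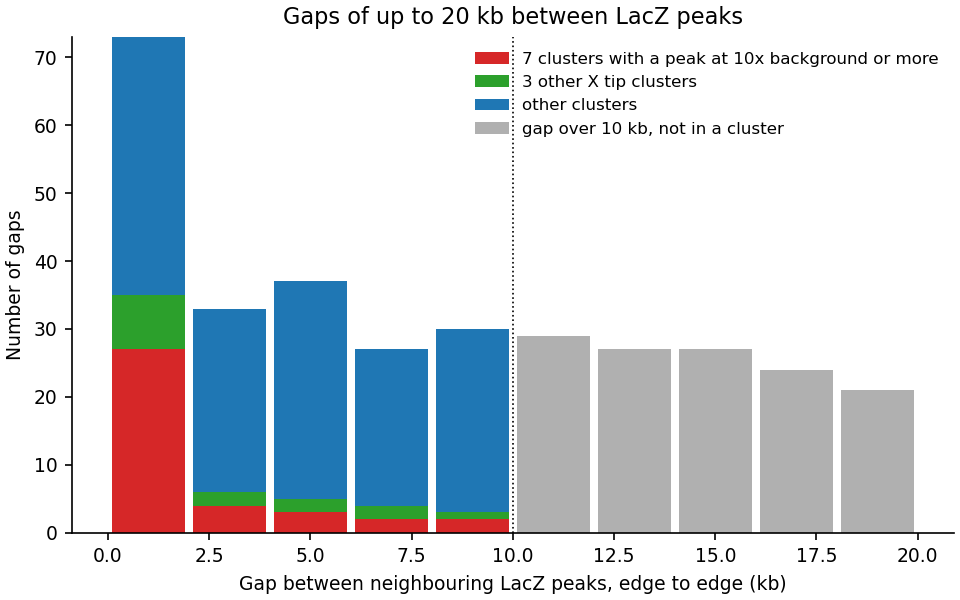
Number of gaps (vertical axis) between neighbouring LacZ peaks by edge-to-edge length in 2 kb bins (horizontal axis, kb), with the dotted line at the 10 kb limit and colours for the kind of cluster. The bin of 0 to 2 kb holds 73 gaps, of which 27 lie in the 7 clusters with a peak at 10 times the genome-wide background or more and 8 in the other 3 clusters at the X chromosome tip.

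The clusters were of 3 kinds. 7 clusters, with 45 peaks, held at least 1 peak whose local background was 10 times the genome-wide background or more; they are called high-background clusters below. A row of 4 clusters stood at the distal tip of the X chromosome, the first of them also a high-background cluster. The remaining 139 clusters, with 286 peaks, were pairs and triples spread over the chromosomes.

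A relative background of at least 10 was found for 34 of the 349 clustered peaks (9.74%, 95% Wilson interval 7.06 to 13.3%) and for 7 of the 5155 isolated peaks (0.136%, 0.0658 to 0.280%). Over all LacZ peaks the share was 0.745%. The 34 peaks lay in 7 clusters on 5 chromosomes, so they are far fewer than 34 separate observations. The 2 groups overlapped in range: the highest relative background was 367 among clustered and 144 among isolated peaks, and the lowest was 1 in both.

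The densest cluster opened the assembled part of chromosome 9, at 3000112 to 3064515, with 23 peaks that covered 41.6% of its length. It had 2 sections. The first 18 peaks, at 3000112 to 3038045, held 19 to 445 fragments (median 121.5) over local backgrounds of 4.88 to 31.8 fragments, which is 56.2 to 367 times the genome-wide background. Their folds ran from 3.40 to 13.6. After a gap of 6518 bp, 5 more peaks at 3044564 to 3064515 held only 3 to 7 fragments over a relative background of 1 to 1.22, with folds of 3.68 to 7.24. Pull-down fragments and input background thus dropped at the same place, while the ranges of fold overlapped. With 1 added to both numbers the folds of the 2 sections are not on a like scale. Their overlap therefore does not show equal enrichment over background.

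Its peak at 3023229 to 3024901 held 445 fragments, the most in the list, over a local background of 31.8, a background that no other LacZ peak reached; its fold was 13.6. The peak at 3000112 to 3003501 followed within the cluster with 317 fragments over 25.0, and at 3390 bp it was the widest LacZ peak. A peak at 3006358 to 3007902 held 313 fragments over 25.4. The lowest of the 18, at 3008262 to 3008523, held 19 fragments over 4.88 and stood 359 bp past the one with 313, so neighbours in the cluster differed widely.

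On chromosome 2 a cluster of 4 peaks at 98502409 to 98507488 lay in the interior of the chromosome, 53.4% of the way from its first to its last LacZ peak for the strongest member. In order along the chromosome the peaks held 159, 27, 190 and 384 fragments over local backgrounds of 13.8, 4.40, 14.1 and 23.6. Folds were 10.8, 5.18, 12.7 and 15.6. The member with the fewest fragments thus also had the lowest background and the lowest fold, and the one with the most fragments, at 98506402 to 98507488, the highest of both.

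Of the high-background pairs, the one on chromosome 17 at 39981420 to 39983413 held 29 and 144 fragments. Its weaker peak stood over the higher background, 8.59 against 6.97 fragments, and had a fold of 3.13, the lowest of all LacZ peaks. Its stronger peak, at 39982220 to 39983413, had a fold of 18.2, the highest of the clustered peaks. The pair on chromosome 9 at 35112826 to 35122987 was uneven in another way. 122 fragments over a background of 7.68, at a fold of 14.2, stood 9631 bp from a peak of 3 fragments over 0.141.

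Chromosome 11 opened with a cluster of 5 peaks at 3033937 to 3053279 and, 24694 bp further, a pair at 3077974 to 3082282. The 5 peaks held 7, 13, 15, 15 and 15 fragments over a relative background of 11.2 to 35.3, and the pair held 22 and 15 over 31.7 and 26.4. Folds were low, from 3.44 to 6.14 over all 7 peaks. An isolated peak at 3093374 to 3093646, 11091 bp past the pair and so just outside the rule, had 18 fragments over a relative background of 36.1 and a fold of 4.59. By these values it resembled the 7 members.

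**Figure D2:**
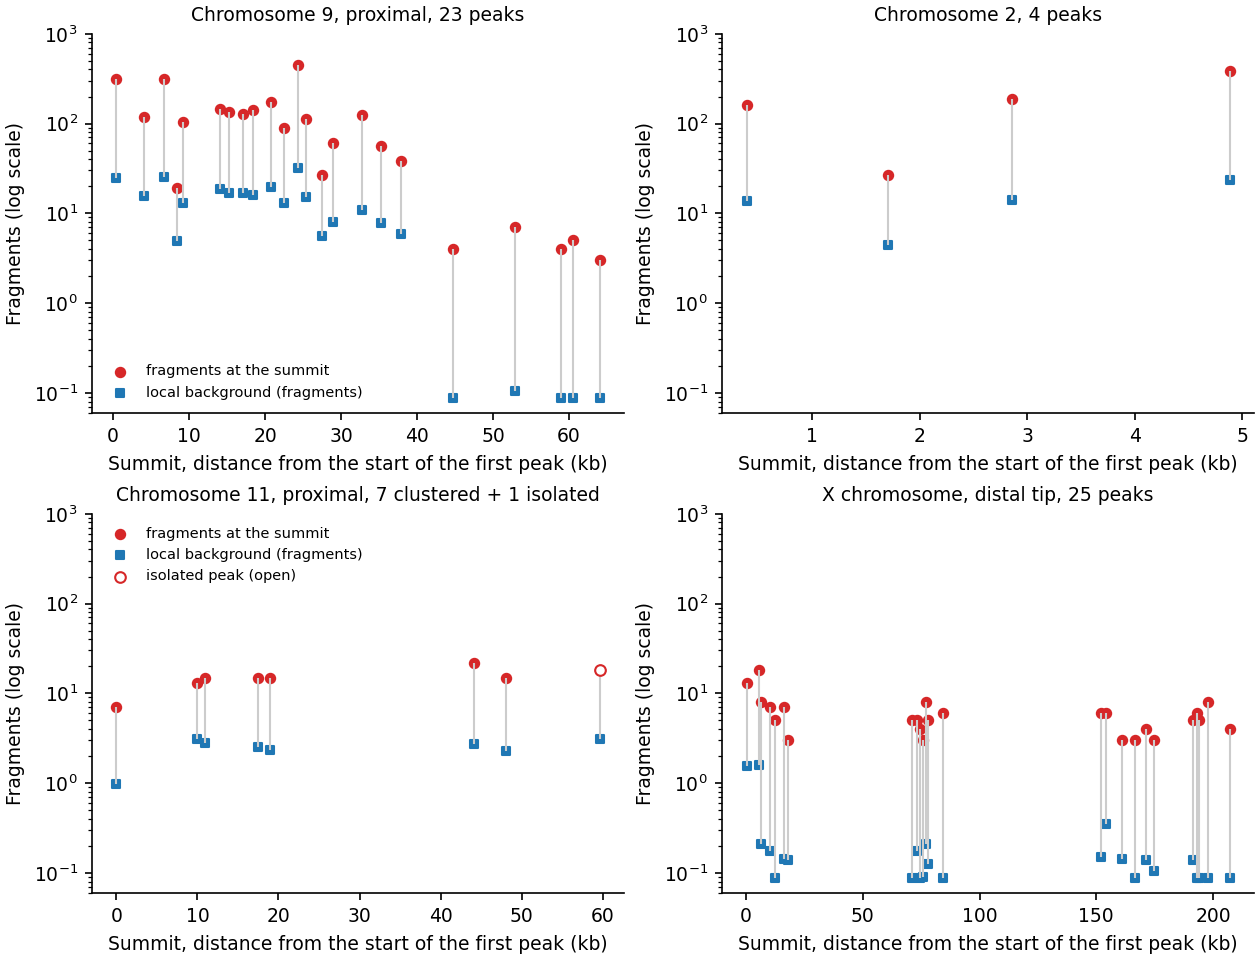
Fragments at the summit (red) and local background (blue), both in fragments on a log scale, against the distance of the summit from the start of the first peak shown in kb, for 4 stretches of LacZ peaks; grey lines join both values of a peak. On chromosome 9 the first 18 peaks lie at 19 to 445 fragments and the last 5 at 3 to 7, with the background dropping at the same step, and on the X chromosome the 25 peaks lie at 3 to 18.

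The distal tip of the X chromosome held 25 LacZ peaks in 4 clusters over 207 kb, at 166427418 to 166445543 (7 peaks), 166498446 to 166512234 (7), 166579350 to 166602601 (6) and 166618591 to 166634624 (5). As background, this end of the mouse X chromosome carries the pseudoautosomal region, which pairs with the Y chromosome; its boundary was not located here. The 3 spaces between the clusters, of 52.9, 67.1 and 16.0 kb, held no LacZ peak, and no isolated peak lay in the last 1 Mb before the last LacZ peak of the chromosome. The last isolated peak of the X chromosome ended 924 kb before the first of the 25.

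The fragments at the X tip were few. The 25 peaks held 3 to 18 fragments (median 5) with folds of 3.50 to 8.28 (median 5.49), and 9 of them stood at the genome-wide background. The first cluster was the high one. Its peaks at 166427418 to 166427686 and 166432648 to 166432930 held 13 and 18 fragments over relative backgrounds of 17.9 and 18.3. The other 18 peaks, in the other 3 clusters, held 3 to 8 fragments over relative backgrounds of 1 to 4.06. The X tip thus differed from the densest cluster, on chromosome 9, in that most peaks of the tip stood close together without a strongly raised input background.

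Fragments were concentrated in the high-background clusters. The 349 clustered peaks are 6.34% of the list and held 18.8% of the summed summit fragments, and the 45 peaks of the high-background clusters are 0.818% of the list and held 14.0%. Of the 29 LacZ peaks with at least 20 fragments, 25 were clustered, and each of these 25 lay in a high-background cluster. At least 7 fragments were found for 65 of the 349 clustered peaks (18.6%, 95% Wilson interval 14.9 to 23.0%) and for 518 of the 5155 isolated peaks (10.0%, 9.26 to 10.9%), against 10.6% of all LacZ peaks. A peak over a high background must hold more fragments to be called at all, so the fragment number of these peaks is partly set by the caller.

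Outside the high-background clusters and the X tip the clustered peaks had similar fragments and folds to the isolated ones. The choice of the clusters caps their background, while the isolated set keeps its 7 peaks of high background, so likeness in background, and in part in fragments, is built in. The 286 peaks held a median of 3 fragments (interquartile range 3 to 5, highest 15), and the isolated peaks a median of 3 (3 to 5, highest 90). The median fold was 3.68 in both. At least 7 fragments were found for 25 of the 286 (8.74%, 5.99 to 12.6%). Exactly 3, the lowest number in the list, were found for 147 (51.4%, 45.6 to 57.1%), for 2675 isolated peaks (51.9%, 50.5 to 53.3%) and for 51.4% of all LacZ peaks. No test was made of these differences, and overlapping intervals do not show that the groups are alike.

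A smaller rise of the input background, more than 1% above the genome-wide level, was common everywhere. It was found for 178 of the 349 clustered peaks (51.0%, 95% Wilson interval 45.8 to 56.2%), for 2222 isolated peaks (43.1%, 41.8 to 44.5%) and for 43.6% of all LacZ peaks. Among the 286 peaks of the small clusters it was 128 (44.8%, 39.1 to 50.5%).

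**Figure D3:**
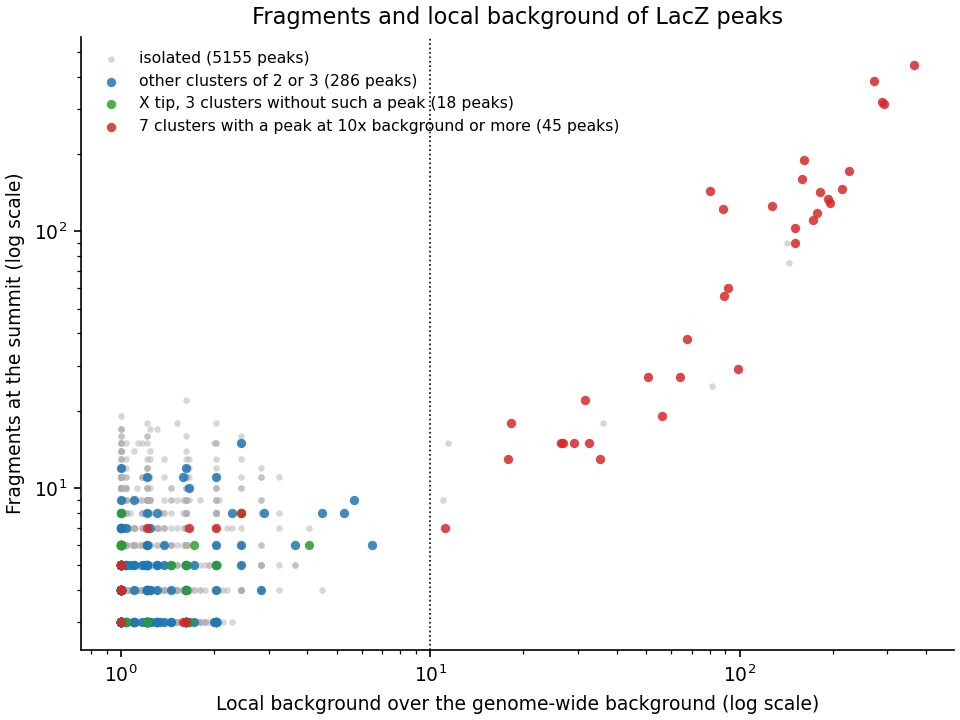
Fragments at the summit (vertical log axis) against the local background divided by the genome-wide background (horizontal log axis) for each of the 5504 LacZ peaks, coloured by kind of cluster, with the dotted line at 10. The 286 peaks of small clusters lie within 15 fragments and to the left of the line, and 34 of the 45 peaks of the high-background clusters lie to its right with 7 isolated peaks.

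The most enriched clustered and isolated peaks differed in kind. The 5 highest folds among clustered peaks were 18.2 on chromosome 17, 15.6 on chromosome 2, 14.2 and 13.6 on chromosome 9, all given above, and 13.2 on chromosome 10 at 58785865 to 58786121. The first 4 of these rested on 122 to 445 fragments at relative backgrounds of 80.4 to 367. The chromosome 10 peak, 4622 bp from a neighbour of 3 fragments, rested on 15 fragments at a relative background of 2.44.

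The highest folds among isolated peaks were 20.2 (chromosome 5, 47743257 to 47743673), 18.4 (chromosome 10, 120802009 to 120802370) and 17.2 (chromosome 11, 11586002 to 11586251). Next came 16.8 (chromosome 4, 9576600 to 9576887) and 16.6 (chromosome 8, 109411664 to 109411876). These 5 peaks rested on 17 to 22 fragments at relative backgrounds of 1 to 1.62. Similar folds therefore stood on very different numbers of fragments. With 1 added to both numbers they do not mean equal enrichment over background. The caller's −log10 q reached 325 among clustered and 40.5 among isolated peaks. It was at least 5 for 106 of the 349 clustered peaks (30.4%, 95% Wilson interval 25.8 to 35.4%), 1210 isolated peaks (23.5%, 22.3 to 24.6%) and 23.9% of all LacZ peaks. Among the 286 peaks of small clusters it was 67 (23.4%, 18.9 to 28.7%), and among the 45 of the high-background clusters 32.

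Among small clusters, the triple with the most fragments lay on chromosome 17 at 13743609 to 13745936. Its peaks held 6, 10 and 8 fragments over relative backgrounds of 3.65, 1.66 and 5.28, with folds of 5.32, 9.62 and 6.17, and gaps of 796 and 400 bp. A pair on chromosome 11 at 88955060 to 88965441 joined 12 fragments to 3 across 9861 bp, both at the genome-wide background. In this pair and the one on chromosome 10, a strong peak stood beside one of the lowest fragment number.

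Clustered peaks were wider. Their median width was 226 bp (186 to 334 for the middle 50%), and that of isolated peaks was 202 bp (181 to 278). Above 500 bp were 31 clustered (8.88%) and 12 isolated peaks (0.233%), against 0.781% of all LacZ peaks. Of the 31, 21 lay in high-background clusters. Width grows with fragments, so it was also compared at equal fragment number. At 3 fragments the medians were 202 bp for 154 clustered and 194 bp for 2675 isolated peaks, at 4 they were 227 and 208 bp, at 5 they were 221.5 and 215 bp, and at 6 they were 275 and 217 bp. The clustered median was the larger at each of these numbers, by 6.5 to 58 bp. The 286 peaks of small clusters had a median of 214 bp, and 7 of them were wider than 500 bp (2.45%, 95% Wilson interval 1.19 to 4.97%, against 0.133 to 0.406% for the isolated share above). These 7 held 4 to 9 fragments and came from 7 clusters. At equal fragment number the medians of small clusters and isolated peaks were 201 and 194 bp at 3 fragments, 226.5 and 208 at 4, 215 and 215 at 5, and 261 and 217 at 6 (17 and 260 peaks). At 7 to 9 fragments they were 243.5 bp for 18 peaks of small clusters and 218 bp for 365 isolated ones. At 10 to 15 fragments the order turned, with 239 bp for 7 peaks of small clusters and 248 bp for 133 isolated ones.

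Clusters were found on all 20 chromosomes, 3 to 15 on each, and the share of LacZ peaks that were clustered ran from 2.90 to 13.4% with a median of 5.76%. The X chromosome had the highest share, 41 of 306 peaks (13.4%, 95% Wilson interval 10.0 to 17.7%), followed by chromosome 9 with 35 of 293 (11.9%, 8.72 to 16.2%) and chromosome 11 with 34 of 302 (11.3%, 8.17 to 15.3%). Without the 7 clusters of 4 or more peaks these shares were 5.69, 4.44 and 9.76%. On the X chromosome and chromosome 9 the share then lay close to the median of 5.61% over chromosomes. On chromosome 11 it stayed above it, with 15 clusters, the most of any chromosome. The 9.76% still includes the high-background pair of chromosome 11, and chromosome 16 was close to it with 9.09%.

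Chromosome ends held a larger share of the clustered than of the isolated peaks. The first 1 Mb after the first LacZ peak of a chromosome held 32 of the 349 clustered peaks (9.17%, 95% Wilson interval 6.57 to 12.7%), 52 isolated peaks (1.01%, 0.770 to 1.32%) and 1.53% of all LacZ peaks. Of the 32, 30 belonged to the clusters that open chromosomes 9 and 11. The last 1 Mb held 33 clustered peaks (9.46%, 6.81 to 13.0%), 57 isolated peaks (1.11%, 0.854 to 1.43%) and 1.64% of all; 25 of the 33 were those of the X tip. Of the 286 peaks of small clusters, 2 lay in the first 1 Mb (0.699%, 0.192 to 2.51%) and 8 in the last (2.80%, 1.42 to 5.42%).

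**Figure D4:**
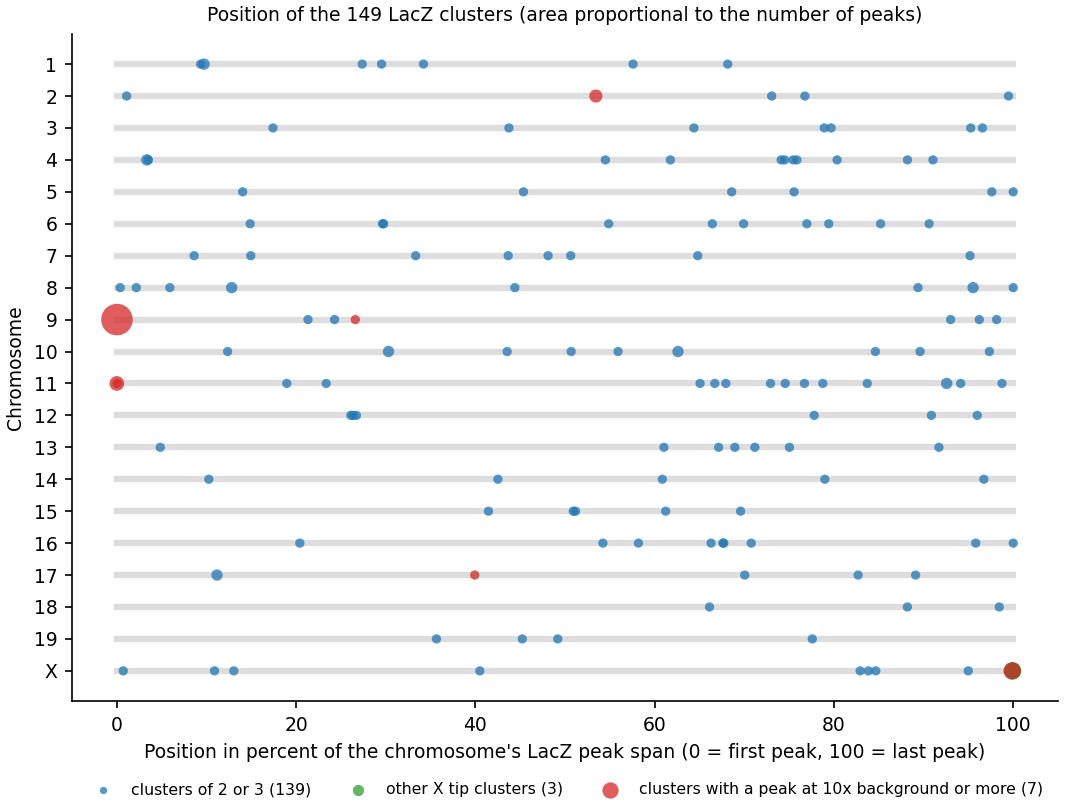
Position of the 149 LacZ clusters along the 20 chromosomes (vertical axis), in percent of the distance from the first to the last LacZ peak of the chromosome (horizontal axis), with the area of a dot proportional to the number of peaks. The 23 peaks of chromosome 9 sit at 0%, the 2 clusters of chromosome 11 at 0%, and the 4 clusters of the X tip fall on each other near 100%.

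High background did not need a cluster. The 7 isolated peaks with a relative background of at least 10 include the one next to the chromosome 11 pair. The highest among them was on chromosome 12 at 3109901 to 3110116, the first LacZ peak of that chromosome, with 75 fragments over a relative background of 144 and a fold of 5.63. A peak on chromosome 6 at 103599040 to 103599278, with 90 fragments over a relative background of 142 and a fold of 6.81, lay 93933 bp from its nearest neighbour. These peaks were 216 and 239 bp wide, against a median of 1205 bp for the first 18 peaks of the densest cluster, on chromosome 9. Narrow peaks also occurred in high-background clusters. The median widths of the 7 such clusters ran from 241 bp for the chromosome 11 pair to 1071 bp for the whole densest cluster.

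LncHSC-2 peaks of the deposited consensus list lay within 10000 bp of a clustered LacZ peak in 4 of 264 cases (1.52%, 95% Wilson interval 0.591 to 3.83%) and within 10000 bp of an isolated one in 13 (4.92%, 2.90 to 8.24%). Counted from the LacZ side, 14 of the 349 clustered peaks (4.01%, 2.40 to 6.62%) and 13 of the 5155 isolated peaks (0.252%, 0.147 to 0.431%) had a consensus peak that near. The 14 belong to 4 clusters, so they are not 14 separate cases, and by cluster the share was 2.68% (1.05 to 6.70%). The other 145 clusters, among them those at the start of chromosome 9 and on chromosome 2, had none. The sources used here do not say whether regions recovered with LacZ probes were taken out of the consensus list.

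Of the 4 consensus peaks, 1 lay within the span of a cluster. It was the peak on the X chromosome at 166508438 to 166508996, with 20 fragments and a fold of 9.00, 2679 bp from the last peak of the second X tip cluster. Another, at 166612340 to 166613043 with 14 fragments and a fold of 10.1, lay 5547 bp before the fourth. Relative to the genome-wide background of their own libraries, their local backgrounds were 2.93 and 1.32. The LacZ peaks of these clusters had 1 to 2.44 and 1 to 1.62, so the first value lay above its neighbours and the other among them.

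The other 2 were the only consensus peaks with a relative background of at least 10. On chromosome 17, the peak at 39984948 to 39985773 lay 1534 bp past the LacZ pair and had a relative background of 79.0, where the nearest LacZ peak had 80.4. Per the labels, the local background of this run, complete probe set replicate 1, comes from the input library of biological replicate 1, and that of the LacZ run from biological replicate 2. On chromosome 11, the peak at 3062525 to 3063103, named after complete probe set replicate 2, lay 9245 bp past the cluster of 5 and had a relative background of 31.7, where the nearest LacZ peak had 26.8. The folds of these 2 consensus peaks were 7.49 and 2.47. The labels do not give the input of that run. The input libraries of biological replicate 2 are those of the LacZ run, so the 2 backgrounds on chromosome 11 may rest on the same libraries, unlike those on chromosome 17.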

How the data were processed

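Members and measures were chosen with earlier results of these data known. Per the submitters' processing notes, the tools were MACS2 2.0.10.20131216 and Bowtie2 2.0.6 and the build mm9, with no settings. The authors deposited 2 peak lists of 10 columns without a header: 1 over both LacZ libraries (5504 peaks) and a LncHSC-2 consensus list (264). Their columns hold a deposited peak score, a fold (ratio), −log10 p and −log10 q of the authors' caller, and the summit offset. Depth is not stated. For each peak the whole number n and background λ were sought for which (n + 1)/(λ + 1) gives the fold and the Poisson upper tail beyond n the p-value, summed in log space. All 5504 LacZ and 264 consensus peaks had a solution to within 0.0001 of the deposited −log10 p; for 1 LacZ peak another whole number also met it. The lowest λ of a list or run was taken as its genome-wide background; in the 2 LncHSC-2 runs it was 4.20 and 5.24 times that of LacZ. Start positions were converted to 1-based.

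Clusters are chains of peaks with gaps of at most 10000 bp. Named were the 8 clusters with the most peaks, the 5 further clusters with the most fragments (ties by fold), the 5 highest folds of each group, the clusters nearest to a consensus peak and the pairs around the limit. Isolated peaks of high background and single members of large clusters were named after their values were seen. The limit of 10 times the background was also chosen after seeing the values. Recovery and clustering were tested on simulated data. Python 3.11.15, numpy 2.4.6, pandas 2.3.3, scipy 1.17.1 and matplotlib 3.10.9 were used. Sequences and gene context were not analysed here, since no genome of the build of the lists was used.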

Additional observations from a re-analysis of the deposited data

How the results depend on the processing

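Of 120 values (8 results under 15 settings), 67 stayed within 1.5 times the main count or median, or the Wilson interval of the main share. 3 settings were chosen after seeing the data: those without clusters of at least 4 peaks, without the high-background clusters and without the X tip. The number of members follows the limit: gaps of 1000, 5000, 20000, 50000 and 100000 bp gave 72, 214, 597, 1153 and 2086 clustered peaks in 31, 90, 269, 519 and 902 clusters. Peaks with −log10 q of at least 5 gave 51 in 14, peaks of at least 4 fragments 128 in 45, and 1 peak per cluster 149. The share with at least 7 fragments was 54.2% at 1000 bp, 25.7% at 5000 bp, 13.9% at 50000 bp and 12.3% at 100000 bp, 68.6% for −log10 q of at least 5 and 39.8% for at least 4 fragments. It was 14.1% without the largest cluster, 10.3% without clusters of at least 4 peaks and 8.88% without the high-background clusters, below the 10.0% of isolated peaks. The share with raised background was 73.6% at 1000 bp, 45.6% at 20000 bp, 43.8% at 50000 bp, 44.2% at 100000 bp, 66.7% for −log10 q of at least 5, 63.3% for at least 4 fragments, 40.3% for 1 peak per cluster and 45.4% without the high-background clusters. The peaks kept as 1 per cluster were stronger than the members as a whole, with a median fold of 5.39 against 4.52. Their 40.3% is therefore not that of an even choice among the peaks of each cluster. The share in the first 1 Mb was 26.4% at 1000 bp, 13.5% at 5000 bp, 6.20% at 20000 bp, 3.56% at 50000 bp, 2.68% at 100000 bp, 37.3% for −log10 q of at least 5, 22.7% for at least 4 fragments and 2.68% for 1 peak per cluster. It was 2.76% without the largest cluster, 1.37% without clusters of at least 4 peaks and 0.658% without the high-background clusters. The median fold was 4.52 for the members in the main setting and 3.68 for isolated peaks. It moved past the limit only for −log10 q of at least 5, to 6.98, where low folds were removed. Within the limit, it fell to 3.68 at 50000 bp, at 100000 bp and without clusters of at least 4 peaks. In these 3 settings it thus equalled the main median of isolated peaks. The median width was 439 bp for −log10 q of at least 5 and 348 bp at 1000 bp. Consensus peaks near a cluster numbered 7 at 50000 bp, 8 at 100000 bp, 2 for −log10 q of at least 5, 2 without the X chromosome or its tip, 2 without the high-background clusters and 1 without clusters of at least 4 peaks. The cause of these shifts was not tested. Merging peaks within 500 bp and measuring from summit to summit moved none of the 8 results past these limits. The 2 LacZ libraries share 1 list, so leaving out a replicate was not possible. No paired analysis was possible because the lists hold no values per library.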

Other observations

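With the distance from the first to the last LacZ peak of each chromosome divided into 10 equal parts, the fourth held 5 of the 149 clusters, the fewest, and the last held 29, the most, including the 4 of the X tip. Counted by peaks, clustered peaks had 3.15 and 22.1% of their number in these parts, and those of pairs and triples 3.77 and 17.8%. Isolated peaks had 9.87 and 11.3% of their number in these parts, which were picked after their values were seen. No test was made. On chromosome 8 a triple at 19924158 to 19926419, picked after its values were seen, had the highest relative background of any cluster outside the 7 high-background ones, up to 6.50, with 8, 6 and 8 fragments and gaps of 554 and 501 bp.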
